A study of Mus musculus with 15 samples.

Results

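In mouse bone marrow-derived macrophages (BMDMs), 363 H3K36me3 regions lay outside protein-coding genes and were called only in the libraries labelled as histone H3.3 knockout (cKO). They were chosen by merging the 4 H3K36me3 region lists on chromosomes 1 to 19 and X, and by keeping merged regions overlapped by at least 1 bp in both knockout libraries and in neither wild-type library, with a midpoint outside every protein-coding gene body of GENCODE M21 (mm10). There were 58499 merged regions in all, of which 8089 had such a midpoint, so the cKO-only intergenic regions were 4.49% of the intergenic ones. The opposite pattern, both wild-type and neither knockout library, held for 561 intergenic regions (6.94%), and 757 intergenic regions were in all 4 libraries. Another 1069 regions had the cKO-only pattern inside coding genes, so 25.3% of the 1432 cKO-only regions were intergenic, against 4.96% of the 15268 regions in all 4 libraries and 10.1% of the 5557 WT-only regions. The H3K36me3 lists selected these regions, so their H3K36me3 lengths are a description and were not tested.

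The study profiled day 6 to 8 BMDM cultures, grown in medium with 20% L929-conditioned medium from marrow of C57BL/6 mice aged 8 to 10 weeks, by CUT&RUN, in which an antibody directs a nuclease to its target in intact chromatin and the released fragments are sequenced. The mice were of either sex. WT cells were H3f3a fl/fl H3f3b fl/fl without Cre, and cKO cells carried the same floxed alleles with LysM cre/cre, a Cre inserted at the myeloid gene Lyz2 that disrupts that gene. Exon 2 of H3f3a and exons 1 to 4 of H3f3b were floxed, Cre acted from the myeloid progenitor stage on, and the study describes the deletion of H3f3b as variable and at times partial. Both genotypes had 2 biological replicates for H3K36me3 and 2 for acetylation of histone H3 at lysine 27 (H3K27ac). H3.3 itself was mapped through an HA tag in 2 replicates of BMDMs from H3.3-HA mice, in which HA-tagged H3f3b replaced the normal gene and nothing was deleted.

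H3K36me3 is laid down behind elongating RNA polymerase II by the methyltransferase SETD2, and it normally fills the bodies of transcribed genes toward their 3′ ends. Outside coding genes it can mark transcription that runs past a gene end, or noncoding genes such as long intergenic noncoding RNAs (lincRNAs) and transcribed pseudogenes. H3.3 is the H3 variant deposited outside replication at active genes, promoters and enhancers, and H3K27ac marks active promoters and enhancers.

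The regions are named m1 to m363 in order of the shorter of their covered lengths in cKO 1 and cKO 2. By this order, used for every ranking of regions here, the first 6 carried the longest marking in both cKO libraries, and the 200 bases at their midpoints are given here as the DNA on which it lay. They were read on the plus strand of GRCm38 (RefSeq), and m1 to m6 lie at chr7:106603549-106603748, chr7:106633695-106633894, chr15:74994243-74994442, chr1:173783809-173784008, chr17:35397270-35397469 and chr6:72168702-72168901. Capitals mark AATAAA, the core polyadenylation signal, read here on the minus strand as TTTATT, which m2 and m6 each held once. GAAANNGAA, the core of interferon regulatory factor sites, was searched on both strands and has no match in these windows.

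m1: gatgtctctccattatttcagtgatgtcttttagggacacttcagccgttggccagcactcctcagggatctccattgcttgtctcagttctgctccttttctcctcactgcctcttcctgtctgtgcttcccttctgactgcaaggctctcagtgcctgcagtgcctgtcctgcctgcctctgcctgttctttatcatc
m2: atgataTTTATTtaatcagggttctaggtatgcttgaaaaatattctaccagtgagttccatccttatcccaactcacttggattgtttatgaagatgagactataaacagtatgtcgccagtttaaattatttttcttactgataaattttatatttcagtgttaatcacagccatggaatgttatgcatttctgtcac
m3: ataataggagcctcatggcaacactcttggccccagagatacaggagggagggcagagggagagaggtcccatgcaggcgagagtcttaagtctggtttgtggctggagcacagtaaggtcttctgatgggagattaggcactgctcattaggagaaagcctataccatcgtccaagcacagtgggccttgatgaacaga
m4: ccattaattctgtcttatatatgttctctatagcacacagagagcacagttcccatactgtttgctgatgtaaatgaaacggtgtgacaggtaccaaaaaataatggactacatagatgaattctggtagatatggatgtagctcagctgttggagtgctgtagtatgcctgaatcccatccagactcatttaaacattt
m5: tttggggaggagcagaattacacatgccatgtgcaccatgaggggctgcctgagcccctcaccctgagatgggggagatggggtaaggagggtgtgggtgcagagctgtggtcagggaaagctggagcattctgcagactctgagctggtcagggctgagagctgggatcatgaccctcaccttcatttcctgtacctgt
m6: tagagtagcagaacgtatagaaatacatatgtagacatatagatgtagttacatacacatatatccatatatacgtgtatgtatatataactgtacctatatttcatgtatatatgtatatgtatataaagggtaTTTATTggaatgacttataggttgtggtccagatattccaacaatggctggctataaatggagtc

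The sequence of m1 lies in the pseudogene Gm1966, that of m4 in the pseudogene Ifi203-ps, and that of m5 in H2-Q5, a class I histocompatibility gene annotated as a polymorphic pseudogene. The sequences of m2, m3 and m6 lie in DNA with no annotated gene at that point.

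The H3K36me3 lists were called from 15.09 and 14.03 M (1e6) tags in WT 1 and 2 and from 23.78 and 23.5 M in cKO 1 and 2. The 4 lists held 43586 to 49931 regions, covering 163.6 and 170.5 Mb in WT but 90.7 Mb in cKO 1 and 163.5 Mb in cKO 2, and 19.34% of tags lay in regions in cKO 1 against 46.54 to 50.24% in the rest. Each genotype had its own IgG control, so depth, control and genotype cannot be told apart, and in bulk cells fewer marked cells and less mark per cell cannot be told apart either. Macrophage marker genes carried H3K36me3 in 17 to 19 of 20 cases per library, lymphoid markers in 0 to 3 of 15 and granulocyte markers in 1 of 14. The lists cannot resolve the floxed exon of H3f3a. The body of H3f3a was covered by 72.3 and 77.8% in WT and 67.9 and 73.0% in cKO, and that of H3f3b by 10.7 and 14.2% in WT and 39.6 and 33.6% in cKO. H3K27ac covered 23.9 and 24.1% of H3f3b in WT and 55.4 and 73.6% in cKO. Coverage of this floxed gene was thus higher in cKO, in lists that hold no signal height. How far H3f3b was deleted in these libraries was not tested, and cKO stands for the label throughout. The study reports the deletion in cKO BMDMs from genomic PCR, RNA and western blot, beside the variable H3f3b deletion named above. Over Lyz2, which the Cre insertion disrupts, H3K27ac covered 88.4 and 76.9% in WT and 24.1 and 12.8% in cKO, while H3K36me3 covered 66.1 and 64.3% in WT and 78.1 and 100% in cKO.

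Most of the cKO-only intergenic regions were short. Their median width was 985 bp (range 503 to 22137 bp), against 961 bp for the WT-only intergenic regions and 3902 bp for those in all 4 libraries. In 212 of the 363 (58.4%) the coverage in at least 1 cKO library was a single call of the smallest size that the peak caller writes. Regions of cKO 2 covered 93.8% of their joint length and those of cKO 1 covered 53.1%. The marking in cKO 2 was the longer in 262 regions and that in cKO 1 in 48. The median gap to the nearest WT region was 7078 bp. It was at most 1 kb for 55 regions (15.2%) and over 50 kb for 57 (15.7%). Leaving out cKO 1 from the rule raised the number of regions from 363 to 2415, and leaving out cKO 2 raised it to 941.

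The regions nearest to the edge of the rule show how narrow it is. Ordered by the shorter cKO coverage and then by width, the last 3, past the end of Mrc1 (m363) and near Card19 (m362) and Tmem132b (m361), were covered by 501 bp in each cKO library and by 0 bp in both WT libraries. Among the 205 intergenic regions in both cKO and 1 WT library, 81 were tied at the least WT coverage, a single call of 501 bp in 1 library. The first 3 of these by position lay near Zcchc2, Tmcc2 and Nav1. In cKO 1 and cKO 2 these 3 had 501 and 835 bp, 1006 and 2349 bp, and 674 and 2008 bp.

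The first 20 regions, those with the most coverage in the less covered cKO library, made up 16.5% of the 518952 bp, and 6 of them overlapped a noncoding gene. The 20 widest made up 21.2%. The first and widest, m1 (chr7:106592581-106614717), was covered by 17455 bp in cKO 1 and 22061 bp in cKO 2. It spans Gm1966, which was covered whole in both cKO libraries and not at all in WT. The neighbouring m2 (chr7:106629785-106637804) was covered by 5557 and 8020 bp, and m15 (chr7:106576076-106578651) by 1382 and 2576 bp. Together 8 of the regions lay within this 76995 bp of chromosome 7, where 2.07 and 1.48% was covered in WT and 36.2 and 63.1% in cKO. The nearest coding gene, the olfactory receptor gene Olfr693, had no H3K36me3 region in any library.

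Past the end of Ly6a, which encodes the surface protein Sca-1, m3 (chr15:74991659-74997027) was covered by 4250 and 5369 bp. The body of Ly6a, which m3 enters, was covered by 57.1 and 68.2% in cKO and had no region in WT, and in cKO 2 that coverage is m3 itself. Both m4 (chr1:173780316-173787502, 3934 and 7187 bp) and m16 (chr1:173774525-173778535, 1349 and 3947 bp) overlapped Ifi203-ps before the start of Ifi204, a member of the interferon-inducible p200 family of nucleic acid sensors. Next in order were m5 in H2-Q5 (3074 and 4628 bp), m6 past the end of St3gal5, the ganglioside GM3 synthase gene (2598 and 3536 bp), m7 before Ankrd34c (2564 and 4093 bp) and m8 before Hmga2, an architectural chromatin protein gene (2441 and 2605 bp). Further down, m17 (chr11:116017251-116018707) lay 3933 bp past the end of the targeted gene H3f3b and was covered by 1412 bp in cKO 1 and 1349 bp in cKO 2. Of these, m6 lay 14231 bp past St3gal5, m7 7244 bp before Ankrd34c and m8 143817 bp before Hmga2. The remaining 9 of the first 20 had between 1292 and 1966 bp in the less covered cKO library. Their nearest coding genes were Clec2d, Rhbdd2, Dppa3, Ch25h, Serpinb8, Slfn2, Cks1b, Mtpn and Cd72. The distances to them ran from 750 bp (Cks1b) to 69276 bp (Ch25h) and 75504 bp (Serpinb8).

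**Figure D1:**
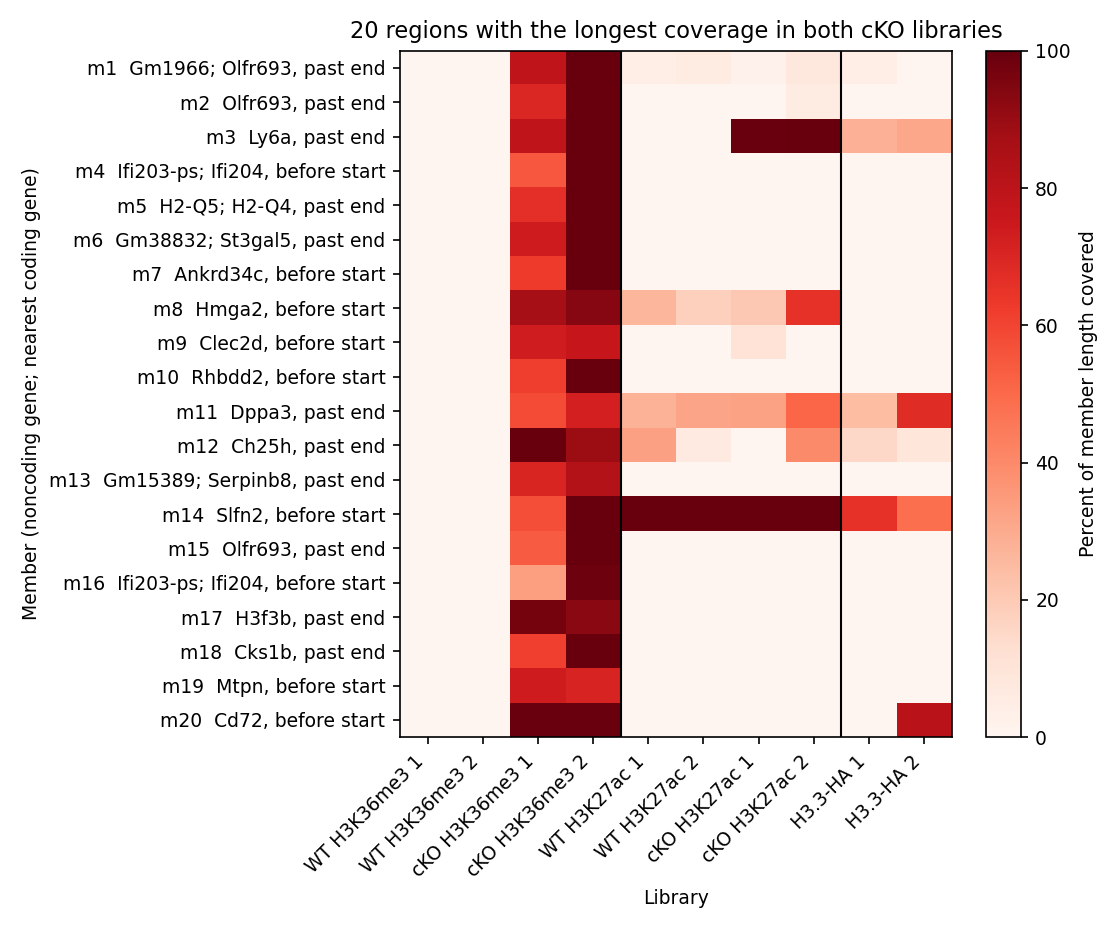
Percent of length covered by called regions in each of the 10 libraries (columns) for the 20 cKO-only intergenic H3K36me3 regions with the most coverage in the less covered cKO library (rows, named by an overlapped noncoding gene and the nearest coding gene); color runs from 0 to 100%. The WT H3K36me3 columns are empty and the cKO columns filled because the rule chose them so, while H3K27ac covers m3 in both cKO libraries only and m14 in all 4 H3K27ac libraries.

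The regions were spread over all 20 chromosomes. Chromosome 1 held 30 of the regions, chromosome 6 held 29 and chromosome X held 4. Of all intergenic merged regions on a chromosome, the cKO-only share ran from 1.94% on X to 8.04% on chromosome 19. Within 5 Mb of Lyz2, the site of the Cre insertion, lay 1 of the 363 and 68 of the 8089. Joining regions at most 50 kb apart gave 320 loci, of which 27 held 2 or more and 8 held 3 or more.

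The first question was how far these regions lie past gene ends. Their share behind gene ends was below that of the regions in all 4 libraries and of the WT-only regions, and near that of intergenic regions with other patterns. The midpoint was within 10 kb downstream of a coding gene in 104 of 363 (28.7%, Wilson 95% interval 24.2 to 33.5%). The same share was 345 of 757 (45.6%, 42.1 to 49.1%) for regions in all 4 libraries and 255 of 561 (45.5%, 41.4 to 49.6%) for WT-only regions. It was 2035 of 6408 (31.8%, 30.6 to 32.9%) for intergenic regions with any other pattern and 33.9% over all 8089. Of the genome outside coding genes, 8.55% lies in such positions. These intervals cover counting error only, and regions of the same libraries are not replicates, so no test was made between classes.

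The same order held next to the gene end. Within 1 kb past an end lay 24 of the cKO-only regions (6.61%), 186 of those in all 4 libraries (24.6%) and 82 of the WT-only ones (14.6%). Before gene starts the order was the other way. Within 10 kb before a start lay 101 cKO-only regions (27.8%, interval 23.5 to 32.6%), against 161 (21.3%, 18.5 to 24.3%) and 77 (13.7%, 11.1 to 16.8%), where the genome share is 9.48%. The nearest coding edge was a gene start for 183 of the 363 (50.4%), for 286 of the 757 (37.8%) and for 175 of the 561 (31.2%). The median distance to it was 12793 bp for the cKO-only regions, 6608 bp for regions in all 4 libraries and 9027 bp for WT-only regions. The start-side shares were not computed over all 8089 intergenic regions, so they compare these classes only.

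**Figure D2:**
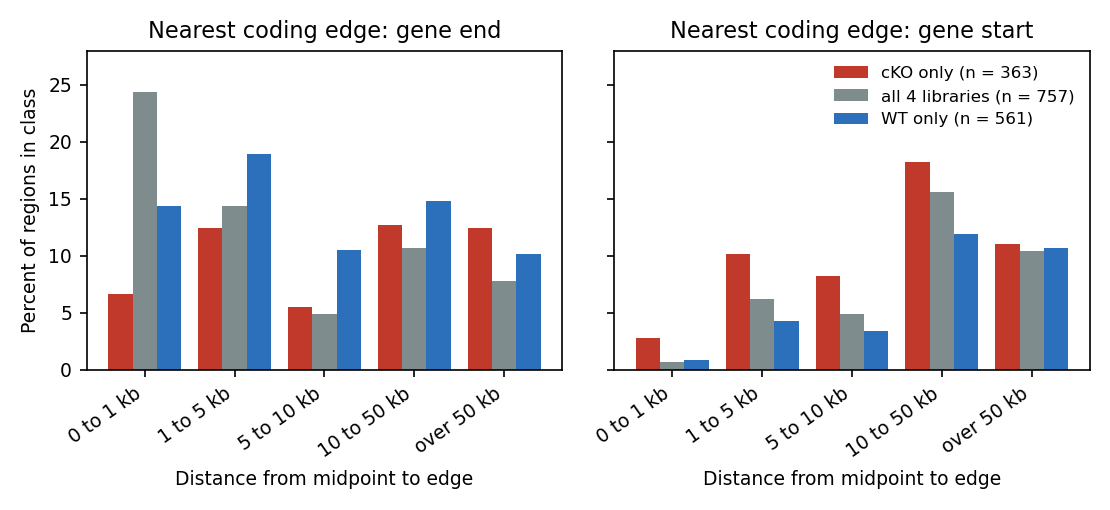
Percent of the regions of each class (y axis) by distance from the midpoint to the nearest coding gene edge (x axis), for regions whose nearest edge is a gene end (left) or a gene start (right). The cKO-only bar is the lowest within 1 kb past an end, at 6.61%, and the highest in each bin before a start, by a small margin over 50 kb.

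The WT-only class had a similar median width but a lower upper quartile of width (1362 against 1676 bp). Against it, the order was the same within each width class. Among regions under 1 kb, 56 of 185 cKO-only (30.3%) and 126 of 300 WT-only regions (42.0%) lay within 10 kb past an end, and among regions of 2 kb or more, 17 of 62 (27.4%) and 32 of 46 (69.6%). The order against the regions in all 4 libraries depends on how outside is defined. When the whole region, rather than its midpoint, had to lie outside coding genes, the shares were 22.6% for cKO-only, 17.4% for all 4 libraries and 39.6% for WT-only regions.

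In each library, taken by itself, most of the genes upstream carried H3K36me3. The 104 regions followed 97 coding genes, of which 67 and 68 had a H3K36me3 region in their body in the WT libraries and 76 and 86 in the cKO libraries. The median coverage of these bodies was 23.6 and 22.1% in WT and 19 and 37.4% in cKO. Some of the regions reach into the gene end. By the rule such overlaps add to the cKO counts and coverage but not to those of WT. Of the 340 genes before regions in all 4 libraries, 300 to 322 had a region in each library. Of the 242 genes before WT-only regions, 217 and 218 had a region in the WT libraries and 192 and 202 in the cKO libraries. At most 1 kb from a WT region lay 35 of the 104.

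The examples that follow lay within 1 kb past the ends of short genes, and they do not stand for all such regions. At 503 bp past Lpar5, for one, m31 followed a gene of 14553 bp. That gene was covered by 5.56 and 20.8% in WT and by 0 and 17.2% in cKO. Isg15 encodes an interferon-induced ubiquitin-like modifier, and m269 (chr4:156198732-156199514) lay 301 bp past its end, covered by 774 bp in cKO 1 and 501 bp in cKO 2. Past the end of Gdf15, a stress-induced cytokine gene of the TGF-beta family, m135 (chr8:70628589-70629894) was covered by 630 and 1306 bp at 151 bp. Cks1b encodes a subunit of cyclin-dependent kinases, and m18 (chr3:89413626-89415817) lay 750 bp past its end with 1336 and 2192 bp. None of the bodies of Isg15, Gdf15 and Cks1b had a H3K36me3 region in WT. At Actg1, the gamma actin gene, m25 (chr11:120344706-120345902) lay 386 bp past the end with 1189 and 1180 bp, and the body was covered by 22.1 and 22.0% in WT and 55.5 and 65.3% in cKO. The regions m269, m135, m18 and m25 reach into the gene ends. In cKO 2 the overlap is all of the body coverage at Isg15 (91 of 1395 bp), Gdf15 (502 of 3064 bp) and Cks1b (346 of 2912 bp), and at Actg1 it is 213 of 2853 bp, a part of it.

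The second question was whether the regions lie on noncoding genes. Of the 363, 74 (20.4%, interval 16.6 to 24.8%) overlapped a gene of another biotype, against 298 of 757 (39.4%, 35.9 to 42.9%) in all 4 libraries and 144 of 561 (25.7%, 22.2 to 29.4%) in WT only, and 22.9% over all 8089. The order against WT-only regions turned in 3 of 11 settings: with only regions of 1 kb or more (35.6 against 30.8%), without WT replicate 2 (23.8 against 20.5%) and with the midpoint outside every annotated gene (3.02 against 2.57%). Noncoding genes take up 11.6% of the genome outside coding genes. That is a share of bases, while a region counts with 1 bp of overlap, so the measures differ. Under 1 kb, 41 of 185 cKO-only (22.2%), 76 of 300 WT-only (25.3%) and 6 of 17 regions in all 4 libraries (35.3%) had such overlap. From 1 to 2 kb the shares were 16.4, 23.3 and 29.8%. At 2 kb or more they were 22.6, 39.1 and 41.2%. By biotype, 41 of the 363 overlapped a lincRNA, 13 an antisense RNA, 9 a pseudogene, 7 a processed transcript and 4 a small RNA gene. The pseudogene share was 2.48%, against 8.72% for regions in all 4 libraries and 5.7% for WT-only regions. Biotype shares were computed neither over all 8089 intergenic regions nor by width, and the regions in all 4 libraries were wider. Another 156 regions overlapped no annotated gene of other biotypes and lay over 10 kb from any coding edge.

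The 74 regions touched 77 noncoding genes, and the first 3 by coverage in the less covered cKO library were on the pseudogenes Gm1966, Ifi203-ps and H2-Q5. Gm1966 (chr7:106596743-106604035, minus strand) was covered by 0% in both WT libraries and 100% in both cKO libraries. H2-Q5 (chr17:35394126-35397800, plus strand) was covered by 0% in WT and by 52.9 and 74.7% in cKO. Ifi203-ps (chr1:173776529-173798270, minus strand) was covered by 18.8 and 15.1% in WT and by 44.2 and 64.2% in cKO. The groups did not overlap at these 3 genes, which the rule used for choosing regions goes far to fix. All 3 belong to families with similar copies nearby, and how reads that match several copies were placed was not tested.

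Among the lincRNAs, Gm15389 (chr1:107687008-107693514), whose 5′ end m13 touches, was covered by 7.7% in each WT library and by 50.7 and 69.6% in cKO. Gm38832, whose 3′ end m6 overlaps, had no H3K36me3 in WT and 11.5 and 13.9% in cKO. Its H3K27ac went the other way, with 36.4 and 45.9% covered in WT and 0% in both cKO libraries. On chromosome 2, m24 (chr2:26137268-26138673, 1196 and 1406 bp) overlapped the lincRNAs Tmem250-ps and 1810012K08Rik, 36 bp from a WT region. Tmem250-ps was covered by 10.2 and 11.3% in WT and 32.3 and 37.9% in cKO, and its H3K27ac by 0% in WT and 35.5 and 40.8% in cKO. The region m31 at 2010008C14Rik (chr6:125083437-125084029), a gene of unsettled biotype, 503 bp past the end of the lysophosphatidic acid receptor gene Lpar5, was covered by 1088 and 1493 bp.

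**Figure D3:**
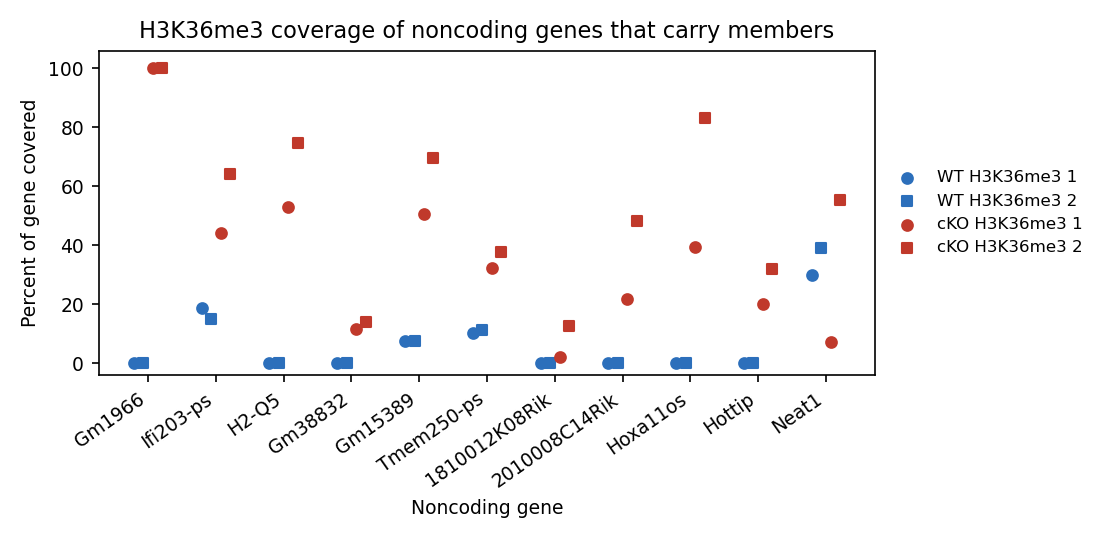
Percent of the gene covered by H3K36me3 regions (y axis) in each of the 4 libraries for 11 noncoding genes that carry cKO-only regions (x axis): the genes of the 8 such regions with the most coverage in the less covered cKO library, and Hoxa11os, Hottip and Neat1, which were chosen after their values were seen. WT points lie at or near 0 for most genes, and at Neat1 the cKO libraries lie on both sides of WT.

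The noncoding RNAs Neat1, Pvt1 and Lncpint each carried a single region on a body already marked in WT. Neat1, the scaffold RNA of nuclear paraspeckles, was covered by 30.0 and 39.0% in WT and by 7.24 and 55.5% in cKO, so the cKO libraries lay on both sides of WT. Its region m36 was 5385 bp wide, with 1002 bp covered in cKO 1 and 5385 bp in cKO 2. Pvt1, downstream of Myc, was covered by 5.14 and 6.26% in WT and 1.5 and 11.1% in cKO. Lncpint was covered by 54.1 and 59.7% in WT and 22.8 and 53.9% in cKO. These 3 were chosen after their values were seen. Hoxa11os and Hottip, chosen in the same way, had 0% in both WT libraries.

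The third question was the overlap with H3.3-HA, which the rule did not use and which was mapped only in cells with intact H3.3 genes. Of the 363 cKO-only regions, 94 (25.9%) were overlapped in H3.3-HA 1 and 92 (25.3%) in H3.3-HA 2. Both libraries overlapped 69 (19%, interval 15.3 to 23.4%). Over all 8089 intergenic regions the share in both was 9.14%. It was 24 of 561 (4.28%, 2.89 to 6.29%) for WT-only regions and 211 of 757 (27.9%, 24.8 to 31.2%) for regions in all 4 libraries. By length, H3.3-HA regions covered 12.1 and 13.0% of the cKO-only regions, 4.59 and 4.68% of the WT-only ones and 11.5 and 13.4% of those in all 4. The H3.3-HA lists came from 6.95 and 5.37 M tags and had their own IgG control.

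The order against WT-only regions was the same in each width class. Under 1 kb, both H3.3-HA libraries overlapped 32 of 185 cKO-only (17.3%, 12.5 to 23.4%) and 8 of 300 WT-only regions (2.67%, 1.36 to 5.17%), and 0 of 17 in all 4 libraries (upper limit 18.4%). From 1 to 2 kb the counts were 18 of 116 (15.5%, 10.0 to 23.2%), 12 of 215 (5.58%, 3.22 to 9.5%) and, in all 4 libraries, 10 of 114 (8.77%, 4.83 to 15.4%). At 2 kb or more, 19 of 62 cKO-only (30.6%), 4 of 46 WT-only (8.7%) and 201 of 626 in all 4 libraries (32.1%) were overlapped. Leaving out either cKO library from the rule gave a share of 11.1%.

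**Figure D4:**
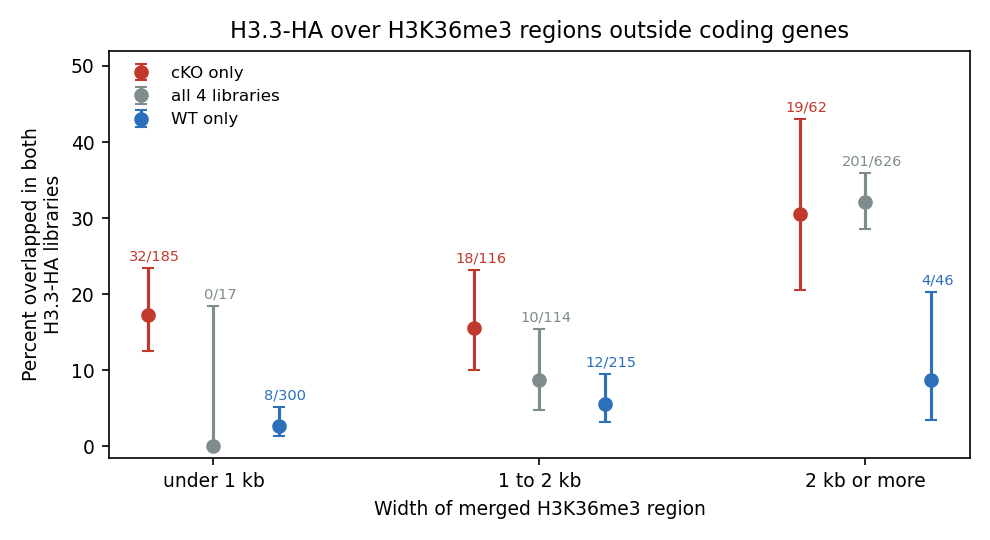
Percent of intergenic H3K36me3 regions overlapped in both H3.3-HA libraries (y axis) by width of the region (x axis), with Wilson 95% intervals as bars and the counts printed above them. The cKO-only point lies above the WT-only point in every width class. The intervals cover counting error only, and regions of the same libraries are not replicates, so no test was made.

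H3.3-HA lay mainly where H3K27ac also lay. Of the 121 cKO-only regions with H3K27ac in at least 1 library, 54 (44.6%) had H3.3-HA in both, against 15 of the 242 without any (6.2%). The same split was 183 of 319 (57.4%) and 28 of 438 (6.39%) for regions in all 4 libraries. For WT-only regions it was 15 of 82 (18.3%) and 9 of 479 (1.88%), so fewer of them had H3K27ac. By side, 44 of the 180 cKO-only regions nearest to a gene end (24.4%) and 25 of the 183 nearest to a start (13.7%) had H3.3-HA in both. Of the 69, 33 lay within 10 kb past an end and 13 on a noncoding gene.

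By coverage in the less covered cKO library, the first regions with H3.3-HA in both libraries were m3 past Ly6a, with 1503 and 1657 bp under H3.3-HA, and m11 (chr6:122630249-122632829), 1267 bp past the germ cell gene Dppa3, with 635 and 1749 bp. At m14 (chr11:83044247-83046714), before the start of the Schlafen gene Slfn2, H3.3-HA covered 1625 and 1195 bp. At m25, past Actg1, it covered 1111 and 1197 of 1197 bp without H3K27ac in any library. At m28 (chr7:142398498-142399871), before the start of the cathepsin D gene Ctsd, it covered 845 and 1325 bp, and at m30, further past Dppa3, 1415 and 662 bp. It covered less at m12, 69276 bp past the cholesterol 25-hydroxylase gene Ch25h (253 and 148 bp). The same held at m23, 171179 bp before the importin gene Ipo5 (130 and 107 bp). The 2 widest regions of all were all but free of H3.3-HA, with 899 and 0 bp at m1 and 0 bp in both libraries at m2.

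H3K27ac gave the only comparison of genotypes that the rule did not use. Its regions covered 14.4 and 12.8% of the cKO-only regions' length in WT 1 and 2, and 14.3 and 16.0% in cKO 1 and 2, so the groups overlapped. The WT mean was 13.6 ± 1.13% and the cKO mean 15.1 ± 1.24% (SD over 2 libraries). The cKO minus WT difference was 1.57 percentage points (p = 0.667, exact permutation over libraries, two-sided), and 4 libraries cannot give a p under 0.333. Over the intergenic regions in all 4 libraries the values were 14.6 and 11.8% in WT and 7.21 and 9.66% in cKO (difference -4.81, exact permutation p = 0.333), and over WT-only regions 4.79 and 4.1% in WT and 1.61 and 1.98% in cKO (difference -2.65, exact permutation p = 0.333). Those groups did not overlap, and the p is the smallest that this design allows.

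All H3K27ac lists were shorter in cKO, with 35018 and 41444 regions against 61764 and 54630 in WT. Set against the regions in all 4 libraries within the same library, coverage of the cKO-only regions was 0.986 and 1.08 times as high in WT and 1.98 and 1.66 times as high in cKO (exact permutation p = 0.333). The cKO ratios lay above both WT ratios. Coverage of the regions in all 4 libraries, by which the ratio divides, was 14.6 and 11.8% in WT and 7.21 and 9.66% in cKO. Coverage of the cKO-only regions themselves overlapped between the groups, so the ratio shows no gain of H3K27ac on them. Leaving out cKO H3K36me3 replicate 2 from the rule turned the plain difference to -0.22.

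**Figure D5:**
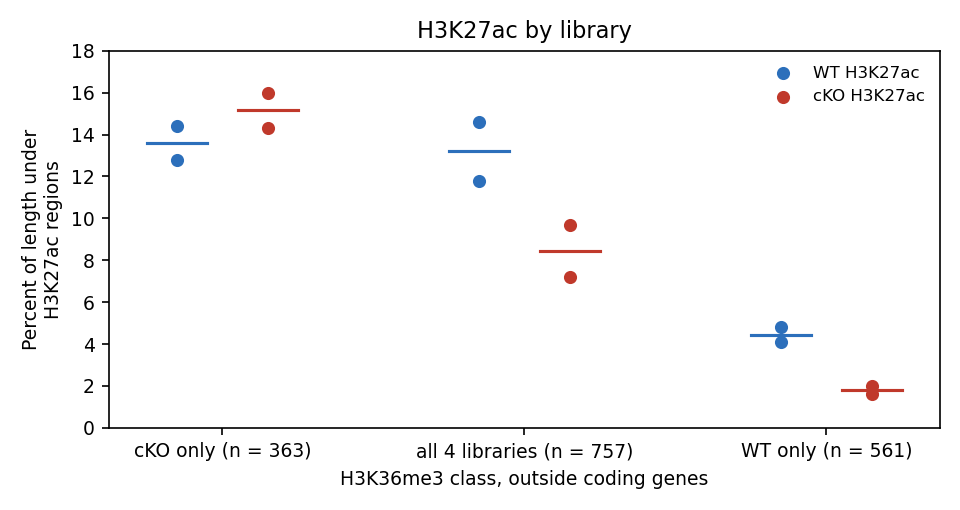
Percent of region length under H3K27ac regions (y axis) in each library (points) with the group mean (line), for 3 classes of intergenic H3K36me3 regions (x axis). WT and cKO points overlap for the cKO-only regions, at 12.8 to 16.0%, and lie apart in both other classes, where cKO is lower.

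Region by region, 242 of the 363 (66.7%) had no H3K27ac in any library, against 57.9% of regions in all 4 H3K36me3 libraries and 85.4% of WT-only regions. All 4 H3K27ac libraries overlapped 48 (13.2%), against 16.6% and 0.713% in those classes. These shares were not computed over all 8089 intergenic regions. In both cKO and neither WT library H3K27ac overlapped 15 (4.13%), where the share over all 8089 intergenic merged regions was 1.11%. The opposite pattern held for 11 (3.03%) against 2.37% over all. At m3, past Ly6a, H3K27ac covered 5346 and 5369 of 5369 bp in cKO and 0 bp in both WT libraries. Next of the 15 in order of the shorter cKO coverage were m33, on which 1178 of 1178 bp were covered in both cKO libraries, 132054 bp past the end of Katnal1, and m37 and m48, before the starts of the H3K9 demethylase gene Kdm3a (85 and 357 bp) and of Scaf8 (247 and 255 bp). At m62 (chr6:17591911-17595386), 19669 bp past the end of the hepatocyte growth factor receptor gene Met, it covered 1945 and 2012 bp. Before the starts of Fnip2 (m99) and of the cathepsin C gene Ctsc (m137) it covered 312 and 227 bp and 787 and 787 bp. The eighth in that order was m155 in the chromosome 7 locus, 3961 bp wide but covered by 501 bp of H3K36me3 in cKO 1, with 653 and 189 bp of H3K27ac.

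Interferon-related genes were the nearest coding genes of several of the regions, at distances of up to 42808 bp. The nearest coding gene was in the interferon list of 105 symbols for 10 of the 363 (2.75%), against 9 of 757 (1.19%) in all 4 libraries, 2 of 561 (0.357%) in WT only and 62 of 8089 (0.766%) over all intergenic regions. Besides the regions at Ly6a, Isg15, Slfn2 and Ifi204, they were m61 and m180 before the start of Slfn8, m295 before Irgm1, a GTPase of the innate defence against intracellular microbes, m319 before Ly6e and m110 before Fcgr1, the high-affinity IgG receptor gene. Past an end lay 2 of the 10. The 10 are not separate places, since m14, m61 and m180 lay within 25973 bp and m4 and m16 within 12978 bp. The distance was 42808 bp at Fcgr1, 21417 bp at m61, 20064 bp at Ly6e and 19631 bp at Slfn2. It was 16966 bp (m4) and 9587 bp (m16) at Ifi204, and shorter at the rest. The midpoint of m180 (chr11:83020742-83022455) lay 789 bp before the start of Slfn8, whose body was covered by 87.4 to 95.9% in all 4 libraries. At m61 (chr11:83040757-83043696) the cKO libraries covered 817 and 2940 bp, and H3K27ac covered 1302 and 1802 bp in WT and 2316 and 1993 bp in cKO. At m269, past Isg15, H3K27ac covered 0 bp in WT and 339 and 783 bp in cKO. The m295 region had 501 bp in each cKO library and no H3K27ac, and m319 had 634 and 501 bp of H3K36me3, with 501 and 533 bp of H3K27ac in WT and 0 and 154 bp in cKO.

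The other lists held few. Cell cycle genes were nearest to 4 (1.1%, over all intergenic regions 0.396%): m116 past Tyms, the thymidylate synthase gene, m121 past the mitotic kinase gene Cdk1, m68 before Rfc3 and m190 before Mki67. The distances were 9201, 15933, 82795 and 198417 bp, so 2 of the 4 were far from the gene. Genes of the p53 and DNA damage list were nearest to 2 (0.551%, over all 0.235%), m135 at Gdf15 and m341 before the apoptosis gene Pmaip1. Lipid and sterol genes accounted for 1 (0.275%, over all 0.272%) and macrophage markers for 2 (0.551%, over all 0.247%). Lymphoid markers also accounted for 2 (0.551%, over all 0.0865%), m222 and m311, both past the end of the B cell gene Ms4a1, and granulocyte markers for 0. Genes that the study lists as higher in cKO at day 7 were nearest to 21 (5.79%, over all intergenic regions 2.47%) and those it lists as lower to 7 (1.93%, over all 1.57%). The study made both lists on cells of these genotypes, so they are not independent of it.

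In base composition the cKO-only regions were close to the other classes. Median G+C was 42.5%, against 42.3% both in all 4 libraries and in WT only, and CpG was 0.7, 0.84 and 0.73 per 100 bases. Repeat-masked bases made up a median of 34.5, 30.2 and 28.7%, and 8 of the 363 were over 90% masked. In the central 300 bases, AATAAA on either strand occurred in 154 of 363 (42.4%), in 277 of 757 (36.6%) and in 200 of 561 (35.7%), and in 20.0% of 27025 RefSeq promoters of 300 bases (GRCm38). GAAANNGAA occurred in 27 (7.44%), 62 (8.19%) and 54 (9.63%), and in 8.57% of the promoters. Of the 324 coding genes nearest to a cKO-only region, 243 had a promoter in the table, and 24 of these (9.88%) held GAAANNGAA.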

How the data were processed

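The authors trimmed and aligned paired reads to mm10 (per the labels, with cutadapt and Bowtie; the methods name Bowtie2) and called regions per library with HOMER in histone style against an IgG control. The deposited lists are region starts and ends in bp, a unit of other kind, with a constant last column that was not used. Per the file headers, peaks of 500 bp at least 1000 bp apart were kept at a Poisson p-value of 0.001, at least 4-fold over control (p-value 0.0001), and stitched. The lists hold no height, so a region listed in only 1 genotype may lie just under the threshold in the other.

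Lists of 10 libraries were merged where they overlapped or touched, with Python 3.11.15, pandas 2.3.3 and scipy 1.17.1. Distances are from a region's midpoint to coding gene bodies. Intervals are Wilson 95% intervals. H3K27ac coverage was compared by a two-sided exact permutation test over libraries. The code was tested on simulated data. IgG samples were not analysed here. The regions and gene lists were chosen with earlier results of these data known. Regions named in the text were, by coverage in the less covered cKO library, the first 20, the first 8 with a noncoding gene, with H3K27ac in cKO only and with H3.3-HA in both libraries, and all beside an interferon, cell cycle or p53 list gene. The replicates are biological per the labels, and their numbers were not stated to pair libraries. Alternatives are given in the closing section.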

Additional observations from a re-analysis of the deposited data

How the results depend on the processing

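The number of cKO-only intergenic regions was 363 and was 73 when only regions of 1 kb or more were used; leaving out 1 H3K36me3 library at a time gave 470 to 2415. The share within 10 kb past a coding gene end (28.7%) was 20.3% with regions up to 1 kb apart merged and 22.6% with the whole region outside coding genes, and by construction 20.4% within 5 kb and 39.4% within 20 kb; leaving out 1 library at a time gave 25.6 to 30.4%. It stayed below the share of WT-only regions in 11 of 11 settings and below that of regions in all 4 libraries in 10 of 11. The noncoding share (20.4%) was 35.6% with only regions of 1 kb or more and 3.02% with the midpoint outside every annotated gene, which removes most such overlaps by construction; it was 18.2 to 23.8% without 1 library, and below the WT-only share in 8 of 11 settings. The H3.3-HA share (19%) was 15.3% with the 1 kb merge, 31.5% with regions of 1 kb or more, 32.2% for overlap in either library, 8.26% when at least 50% of the region had to be covered, and 11.1 to 25.9% without 1 library; it was above the WT-only share in 11 of 11 settings. The H3K27ac difference (1.57 points) was -0.22 to 2.45 points without 1 library, with -0.22 without cKO H3K36me3 replicate 2; the cause of these shifts was not tested. With the replicate block, which pairs libraries of the same number, the mean difference was 1.57 with an exact sign-flip p of 1.0, where 2 pairs cannot give less than 0.5. The labels do not say that the numbers pair libraries, and the replicate deviations of WT and cKO correlated at -0.07 over the 363 regions. Leaving out the 8 regions of the chromosome 7 locus, chosen after seeing the data, gave shares of 29.3, 20.6 and 19.2% and a difference of 1.56 points. Lists without heights and 2 libraries per group limit what can be called, since the exact test cannot give a p under 0.333.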

Other observations

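Besides the chromosome 7 locus and the Schlafen genes, 6 loci held 3 or more cKO-only intergenic regions. These loci were picked out after their values were seen and carry no test. The Schlafen stretch (chr11:83020742-83046714) was marked in WT as well, at 48.6 and 52.1% of its length against 64.9 and 88.3% in cKO. At the 5′ end of the HoxA cluster, which encodes transcription factors of body patterning, 5 regions lay within 17821 bp (chr6:52246793-52264613) from Hoxa11os to Hottip. This stretch was not covered in WT and was covered by 18.3 and 43.5% in cKO, with neither H3K27ac nor H3.3-HA in any library. Hoxa11os, transcribed antisense to Hoxa11, was covered by 0% in WT and by 39.6 and 83.2% in cKO, Hottip by 0% and by 20.0 and 32.0%, and the coding gene Hoxa11 by 0% and by 37.3 and 84.5%. Hoxa13, between them, had no region in any library.

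Around Dppa3 and Gdf3, 3 regions lay in 25146 bp that H3K36me3 regions covered by 0% in WT and by 14 and 27.9% in cKO, with H3K27ac over 32.7 and 28.5% in WT and 28.6 and 30.5% in cKO. Beyond the end of Reep3, where another 3 regions lay, a stretch of 17884 bp was covered by 0% in WT and by 10.2 and 22.8% in cKO, with H3K27ac over 47.7 and 39.4% in WT and 43.2 and 48.9% in cKO. This stretch is far from Reep3, with m91 and m162 at 145130 and 161225 bp past its end. The lincRNA Gm38399, between Nav1 and Csrp1, held 4 regions but was marked in WT as well, at 24.6 and 29.4% of its length against 22.9 and 41.6% in cKO. Beyond the end of Lpp, 3 regions lay in 10494 bp covered by 0% in WT and by 15.9 and 16.4% in cKO. Near Cabp2 and Gstp3 another 3 lay in 15948 bp covered by 0 and 3.14% in WT and by 15 and 32.4% in cKO.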
